A study of Mus musculus with 2 samples.

Results

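Pcp4 encodes a small peptide that binds calmodulin, and Pcp4l1 encodes its closest relative. Both transcripts were lower in fetal mouse ureters in which Rbpj was targeted for deletion. They were chosen by their measured ratio of Rbpj-cKO to control on the arrays described here, so those ratios are given as a description and carry no test. The members are all spots whose gene name in the scanner files is Pcp4 or Pcp4l1. Each gene had 1 probe with 1 spot on each array, which makes 2 genes of the 20989 genes and unnamed transcripts (features) that passed a filter on dim probes.

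Calmodulin is the calcium sensor of the cell: it binds calcium ions and then switches on kinases, the phosphatase calcineurin, ion channels and pumps. In smooth muscle, calcium-loaded calmodulin activates myosin light chain kinase, which starts contraction. Pcp4 (Purkinje cell protein 4, also called PEP-19) is a short peptide with an IQ motif, a stretch that holds calmodulin, and it speeds the exchange of calcium on calmodulin. It is best known from Purkinje neurons of the cerebellum. Pcp4l1 (Purkinje cell protein 4-like 1) is its closest relative and also carries an IQ motif. The motif alone does not show that Pcp4l1 binds calmodulin, and binding was not measured here.

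The tissue was ureter dissected from NMRI mouse embryos at stage E18.5, when a coat of smooth muscle, formed from mesenchyme, surrounds the urothelium. The Rbpj-cKO embryos were Tbx18(cre/+);Rbpj(fl/fl), in which a cre recombinase expressed from 1 Tbx18 allele acts on both floxed alleles of Rbpj, the DNA-binding partner of Notch receptors. The control embryos were Rbpj(fl/?), with at least 1 floxed allele and no cre in their label. By these labels, cre and the changed Tbx18 allele go with the Rbpj deletion, so their parts in a ratio cannot be told apart. There were 2 arrays: on one a male Rbpj-cKO sample was set against a male control, and on the other a female Rbpj-cKO sample against a female control. Rbpj-cKO RNA was in the red channel on the male array and in the green channel on the female array, so sex, dye orientation and array cannot be told apart. Neither the number of embryos behind a sample nor any pooling is given, so the spread between arrays may be technical in part.

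The share of probe spots well above background ran from 66.8% to 71.1% over the 4 channels, and no spot was saturated. At its brighter probe, Rbpj had a log2 ratio of Rbpj-cKO to control of -1.58 (male array) and -0.93 (female array), and at its dimmer probe -0.42 and -1.12. Tbx18 had ratios of -0.11 and 0.47. The sources used here do not place the Rbpj probes inside or outside the deleted part, so the labels cannot be checked with them.

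The probes that carry all of the member values are oligonucleotides of 60 bases, and their last 30 bases, as the scanner files give them, are shown to let a reader see that they read different transcripts. The hexamer AATAAA, the common polyadenylation signal, is in capitals.
Pcp4 probe: agtatttatgccccctataggcaggtatcc
Pcp4l1 probe: tagcatgtttaataatgatgacAATAAAaa

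The Pcp4 probe lies on the plus strand of chromosome 16 at 96747241 to 96747300 (mm9, the build of the array design) and is assigned to the transcript NM_008791. The Pcp4l1 probe lies on the minus strand of chromosome 1 at 173103423 to 173103482 (mm9) and is assigned to NM_025557. Which exon or untranslated region they fall in was not analysed here. The longest run of bases that the whole probes have in common is 5, and neither shares a run of 20 bases with any of the 39428 other probes. With 1 probe per gene, no second probe checks either value.

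Pcp4 gave 1 of the brighter spots of the arrays in control ureters, and its signal was clearly lower in Rbpj-cKO ureters. On the male array its mean spot signal was 121491 in the control (green) and 62584 in the Rbpj-cKO channel (red), against local backgrounds of 52 and 113.5. On the female array it was 195503 in the control (red) and 32990 in the Rbpj-cKO channel (green), against backgrounds of 108 and 41. The control channel was thus the brighter one in either dye, and every one of these readings was well above background and none was saturated.

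After the scanner software had subtracted background and balanced the dyes, the processed signal of Pcp4 was 58466 in control and 17134 in Rbpj-cKO ureters on the male array. On the female array the processed signals were 49798 and 15847. Ranked by processed signal among all probes, Pcp4 stood at place 579 in the male and 655 in the female control channel, within the top 1.47% and 1.66%. In the Rbpj-cKO channels it stood at places 2618 and 2536, within the top 6.64% and 6.44%. Probes differ in how strongly they bind, so these places describe the spots and do not order genes by expression. Pcp4 RNA thus remained well detected in the Rbpj-cKO channels.

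Pcp4l1 showed the same order of channels from a dimmer spot. Its mean spot signal was 8540 in control and 4960 in Rbpj-cKO ureters on the male array, and 11016 and 3334 on the female array. The processed signals were 3812 and 1644 on the male array and 3540 and 1309 on the female array. These put both control channels in the top 19.1% of probes and the Rbpj-cKO channels in the top 28.1% and 28.9%. All 4 readings were well above background and none was saturated, so both genes have a measured fold and not a bound.

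For a comparison of channels across arrays, levels were taken after intensity-dependent (loess) correction and alignment of mean intensities between arrays (Aquantile), on a log2 scale. The Pcp4 levels were 17.23 and 17.20 in the male and female controls and 15.48 and 15.50 in the Rbpj-cKO samples. The Pcp4l1 levels were 13.22 and 13.28 in the controls and 11.99 and 12.01 in the Rbpj-cKO samples. Samples of the same group differed between the male and the female array by at most 0.06. Of all features, 0.434% were at least 1.5-fold lower on both arrays. Pcp4 and Pcp4l1 were picked from among these, so nothing is read from the distance between their groups.

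**Figure D1:**
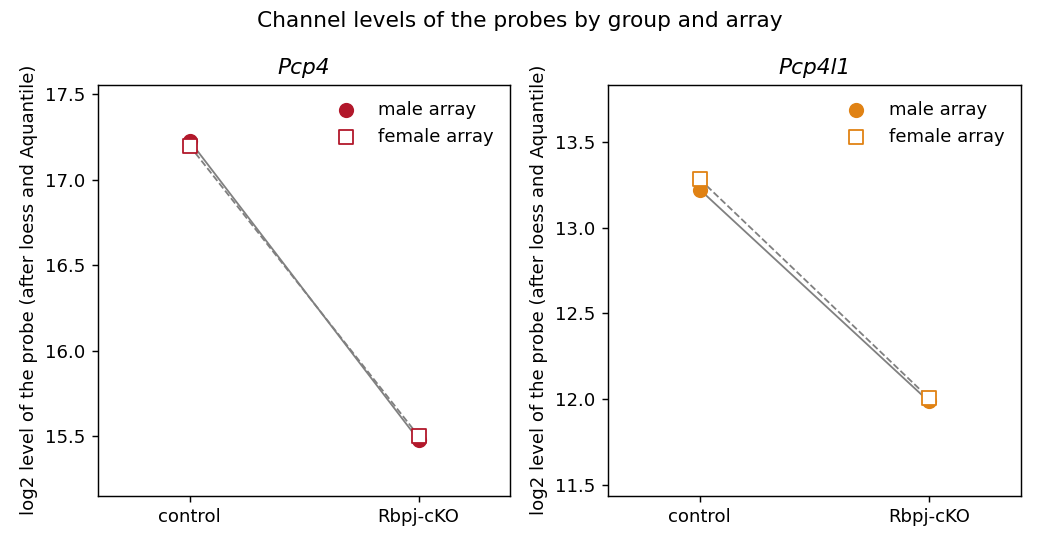
Log2 level of the Pcp4 probe (left) and the Pcp4l1 probe (right) in control and Rbpj-cKO channels, after loess and Aquantile; points are single channels (filled circles, male array; open squares, female array) and lines join the channels of 1 array. Both panels span the same range: Pcp4 goes from 17.23 and 17.20 in control to 15.48 and 15.50 in Rbpj-cKO samples, and Pcp4l1 from 13.22 and 13.28 to 11.99 and 12.01.

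Expressed as a log2 ratio of Rbpj-cKO to control, Pcp4 had -1.75 (male) and -1.70 (female; mean -1.72, SD 0.04, SE 0.03, n = 2), or 30.3% of the control level. Pcp4l1 had -1.24 and -1.28 (mean -1.26, SD 0.03, SE 0.02, n = 2), or 41.8% of the control level. The scanner software's own error of a single log2 ratio was 0.26 and 0.25 for Pcp4 and 0.23 and 0.24 for Pcp4l1. That error belongs to the software's processed ratios and not to the loess ratios above. The processed ratios were -1.77 (male) and -1.65 (female) for Pcp4, and -1.21 and -1.44 for Pcp4l1. The SD between arrays of Pcp4 was smaller than that of most features: the median over all features was 0.19, and 10.2% of features had an SD smaller than Pcp4. For Pcp4l1 the share was 7.70%. An SD from a pair of arrays is itself poorly determined, and probes printed in 10 copies showed that spots of 1 array scatter with a median SD of 0.05 (male array) and 0.14 (female array).

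The log2 ratio of Pcp4 lay below that of Pcp4l1 by 0.51 on the male and by 0.42 on the female array (mean difference -0.47, SD 0.07, n = 2). Ordered by mean ratio from the lowest, Pcp4 stood at place 5 and Pcp4l1 at place 18 of the 20989 features. On the single arrays Pcp4 stood at places 10 and 20 and Pcp4l1 at places 63 and 58. These places restate the choice of the genes and changed with the processing.

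The closeness of the arrays depended on the intensity-dependent dye correction. When each array was only centred on its median, Pcp4 had -1.21 (male) and -2.20 (female; mean -1.70, SD 0.70), and Pcp4l1 had -1.04 and -1.34 (mean -1.19, SD 0.22). With Agilent's processed signals Pcp4 had -1.77 and -1.65, and Pcp4l1 -1.21 and -1.44. The means over the arrays moved less than the single arrays did. The sign was negative for both genes on both arrays in each of these settings.

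**Figure D2:**
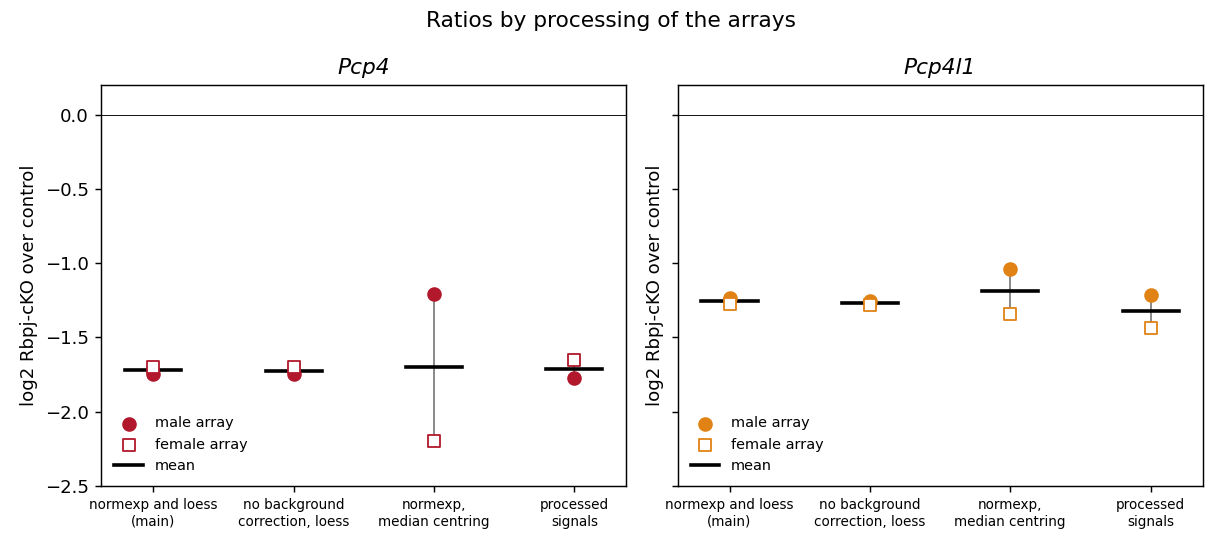
Log2 ratio of Rbpj-cKO to control of Pcp4 (left) and Pcp4l1 (right) under 4 ways of processing the arrays; filled circles are the male and open squares the female array, and the black bar is their mean. The mean of Pcp4 stays between -1.72 and -1.70, while with median centring the arrays lie at -1.21 and -2.20.

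The calmodulin pathway was described from lists of its genes. Of 110 genes in 6 lists of calmodulin biology, 98 were measured, and none passed the limma test with Benjamini-Hochberg adjustment over all features (threshold 0.05; lowest adjusted p = 0.379), where 0.129% of all features were called. At an unadjusted p under 0.05 there were 4 of the 98, beside 708 of all 20989 features. The median log2 ratio of the 98 genes was -0.06 (male -0.05, female -0.11), beside 0.01 over all features.

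**Figure D3:**
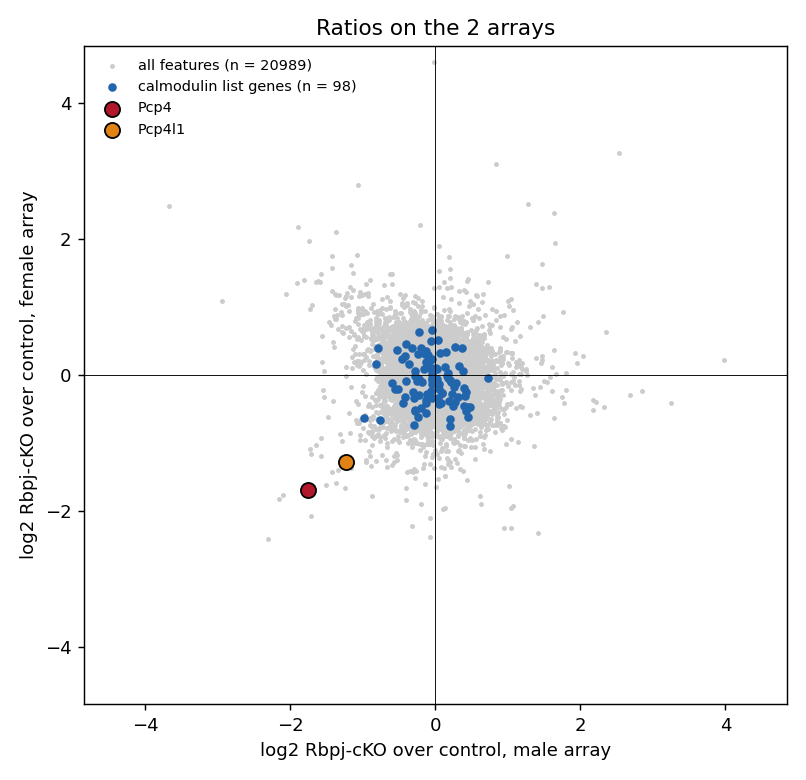
Log2 ratio of Rbpj-cKO to control on the male array (horizontal) and the female array (vertical) for all 20989 features (grey), the 98 measured calmodulin list genes (blue), Pcp4 (red) and Pcp4l1 (orange). Pcp4 lies at -1.75 and -1.70 and Pcp4l1 at -1.24 and -1.28, places fixed by the choice of these genes; the blue points scatter around 0.

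Calm2 and Calm3 encode calmodulin itself. Calm2 had -0.26 (male) and -0.09 (female), and Calm3 had 0.32 and -0.32, so Calm3 changed sign between the arrays. Over the 13 measured calmodulins and calmodulin-like genes the median was -0.14, with the neuronal calcium sensor Caln1 lowest (-0.34) and the retinal calcium-binding protein Cabp5 highest (0.09). Calm2 and Calm3 encode the same protein, and whether their probes cross-react was not tested.

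Other genes of proteins with an IQ motif are described next. The members were chosen for their low ratios, so nothing is read from the distance between them and these genes. Neurogranin (Nrgn), a neuronal peptide that stores calmodulin, had 0.18 (male) and 0.03 (female). Neuromodulin (Gap43), which does so in growing axons, had 0.23 and -0.28. The 19 IQ-motif and related calmodulin-storing genes had a median of 0.04, from -0.43 for Spa17, a sperm surface protein with a calmodulin-binding domain, to 0.39 for Iqgap3, a scaffold of dividing cells.

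Among the kinases, Camk2a had -0.13 and -0.36, Camk2b -0.28 and -0.51, Camk2d -0.42 and 0.28, and Camk2g -0.37 and 0.16 on the male and female array. These encode the subunits of calmodulin-dependent kinase II. The 18 measured kinases and kinase inhibitors had a median of -0.09, with the kinase Pnck lowest (-0.41) and the inhibitor Camk2n2 highest (0.35; male 0.73, female -0.04). In the calcineurin and NFAT list of 15 genes the median was -0.11. Its lowest gene was Akap5, an anchor for kinases and calcineurin, with -0.98 and -0.63 (limma adjusted p = 0.379), and its highest was the calcineurin inhibitor Cabin1 (0.27).

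In the contraction list, where calmodulin acts through myosin light chain kinase, 8 of 15 measured genes were lower on both arrays, beside 19.7% of all features. In this list 1 gene was higher on both arrays, and none passed the test. Mylk, the kinase, had -0.60 (male) and -0.12 (female), with a mean of -0.36. The calmodulin-binding actin regulator Cald1 was lowest with -0.29 and -0.73, and the myosin light chain Myl12a was highest (0.12). The median of the 15 measured genes was -0.09. Among 18 enzymes, channels and pumps under calmodulin control the median was 0.02, and it fell slightly below 0 without background correction and with processed signals. The ryanodine receptor Ryr3, a calcium release channel, was lowest with -0.77 and -0.66 (limma adjusted p = 0.529), and its relative Ryr1 was highest (0.34). Akap5 and Ryr3, 2 of the 98 measured calmodulin list genes, were at least 1.5-fold lower on both arrays, where 0.434% of all features were.

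Ureters hold several cell types, so the markers of these are given beside the members. The 12 smooth muscle markers, all measured, had a median of -0.37 (male -0.57, female -0.43), and 10 were lower on both arrays, where 19.7% of all features were. The 4 at least 1.5-fold lower on both arrays were Ckm, Tnnt2, Synpo2 and Des, named here after their values were seen, beside 0.434% of all features. Muscle creatine kinase (Ckm) passed the test (-1.42; limma adjusted p = 0.0203), and 11 did not pass. Ckm and Tnnt2 were listed with earlier results of these data known, so they are no independent markers of smooth muscle. The median and counts include them. The smooth muscle myosin Myh11 had -0.35 and the smooth muscle actin Acta2 -0.20, and neither was 1.5-fold lower on both arrays. Summed over the 12 markers, the processed signal was 364958 in control and 269958 in Rbpj-cKO ureters on the male array. On the female array the sums were 292445 and 237084. In RNA of whole ureters, fewer cells of a type and less RNA per cell cannot be told apart, and the part of smooth muscle content in the values of Pcp4 and Pcp4l1 was not tested.

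Markers of heart and skeletal muscle had a median of -0.26 over 11 measured of 15, and 9 were lower on both arrays, beside 19.7% of all features. The cardiac myosin chain Myh6 (-2.36; limma adjusted p = 0.000755) and the atrial light chain Myl4 (-1.40; adjusted p = 0.0356) passed, and 9 did not. Those 9 ran from -0.44 (Tnnt3) to -0.04 (Actn2), and the cardiac myosin chain Myh7 had -0.06. This list too was written with earlier results of these data known. The skeletal muscle regulator Myod1 did not pass the filter on dim probes. The summed processed signal was 19862 in control and 9303 in Rbpj-cKO ureters on the male array, and 15583 and 8650 on the female array. The part of this list in the values of Pcp4 and Pcp4l1 was not tested.

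Neuron markers are given because Pcp4 is known from neurons. Of 13, 12 were measured, none passed, and their median was 0.27 (male) and -0.30 (female). Their summed processed signal was 13352 in control and 13748 in Rbpj-cKO ureters on the male array and 19009 and 11493 on the female array. The neuron sums were thus close to each other on the male array and lower in Rbpj-cKO ureters on the female array. Single neuron markers went opposite ways behind these sums. Dbh had 1.42 (male) and -2.32 (female), and Stmn2 had -1.03 and 0.19. The part of neurons in the values of Pcp4 and Pcp4l1 was not tested. In the other lists the median was -0.20 for 6 glial, 0.21 for 12 urothelial and -0.26 for 7 immune markers. For 5 kidney markers it was 0.45 (male 0.21, female 0.61). The arrays differed for 8 fibroblast markers (0.19; male 0.41, female 0.01) and 6 mesothelial markers (0.25; male 0.47, female -0.05). For 7 endothelial markers the median was -0.08 (male 0.05, female -0.04). No marker of these lists was past the limma test. Single markers spread widely within a list: the 5 kidney markers ran from -0.59 (Cited1) to 1.17 (Six2; 1.48 male, 0.86 female), the fibroblast markers from -1.05 (Dpt; -0.20 male, -1.90 female) to 0.39, and the immune markers from -0.49 (C1qb) to 0.04.

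**Figure D4:**
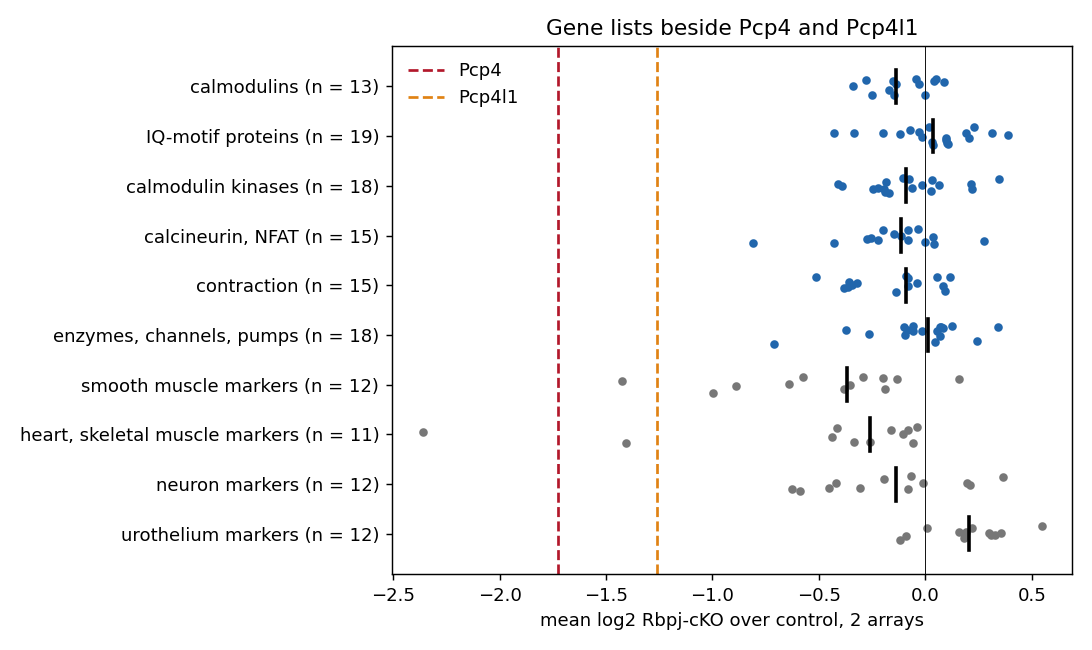
Mean log2 ratio of Rbpj-cKO to control over the 2 arrays for each measured gene of 6 calmodulin lists (blue) and 4 marker lists (grey); black bars are list medians and dashed lines mark Pcp4 (-1.72) and Pcp4l1 (-1.26). The places of the lines are fixed by the choice of these genes; the list medians lie between -0.37 and 0.21.

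The features nearest to each gene in the plane of male and female ratios were found among 19378 features with a gene symbol. For Pcp4 they were the chemokine gene Ccl11 (distance 0.26 on the log2 scale; -1.51 and -1.61), Wfdc18 (0.36), LOC100044755 (0.37), which the array describes as similar to the muscle protein APOBEC-2, the melanocortin receptor gene Mc4r (0.40) and Ckm (0.42). For Pcp4l1 they were Angptl1 (distance 0.05; -1.19 and -1.25), P2ry14 (0.07), Myo18b (0.12), the lubricant proteoglycan gene Prg4 (0.16) and Ckm (0.24). Likeness over 2 arrays is a description of these ratios only.

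The genes beside them on the chromosome had means near 0. In the order of the RefSeq gene table (GRCm38.p6), the nearest measured genes around Pcp4 were Igsf5 and Itgb2l on one side and Bace2 and Mx1 on the other, with means from 0.02 to 0.18. Around Pcp4l1 they were Cfap126 and Sdhc, and Tomm40l and Apoa2, with means from -0.12 to 0.15. None of these 8 genes passed the limma test (each adjusted p = 1.00). Apoa2 had -0.65 (male) and 0.70 (female).

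RBPJ binds DNA, so the 250 bases before their start sites are shown, from RefSeq (GRCm38.p6), each on its own strand. That of Pcp4 is chr16:96467356-96467605 (plus strand) and that of Pcp4l1 is chr1:171196269-171196518 (minus strand).
Pcp4 upstream: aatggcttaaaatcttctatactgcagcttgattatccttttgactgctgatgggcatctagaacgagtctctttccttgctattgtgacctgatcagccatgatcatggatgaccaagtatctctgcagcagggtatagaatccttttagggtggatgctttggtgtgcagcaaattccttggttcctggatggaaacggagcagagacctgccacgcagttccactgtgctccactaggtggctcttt
Pcp4l1 upstream: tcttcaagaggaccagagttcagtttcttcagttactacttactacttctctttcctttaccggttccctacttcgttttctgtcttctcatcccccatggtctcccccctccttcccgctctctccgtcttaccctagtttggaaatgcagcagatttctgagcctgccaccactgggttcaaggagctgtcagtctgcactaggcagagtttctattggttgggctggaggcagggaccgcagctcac

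Both strands of each stretch were searched for the RBPJ core TGGGAA, the E-box CANNTG of basic helix-loop-helix factors, and the CArG box of serum response factor. None of the 3 was found in either stretch, so no base is in capitals. Of 32851 upstream stretches of the same length, 21.6% hold the RBPJ core, 66.2% an E-box and 1.5% a CArG box. This says only that these letters are not in these windows. Other sites that Hes and Hey proteins can bind were not searched for, so nothing is said about those proteins.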

How the data were processed

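RNA of 2 arrays was compared within each array. Per the submitters' processing notes, the deposited spot intensity values come from Agilent Feature Extraction 10.7.3.1. The deposited mean and background intensity columns were not normalized. The processed intensity columns had, per the file headers, been background-subtracted, detrended and dye-normalized by the scanner software. The deposited LogRatio and its error are on a log10 scale per the file headers, and the error was converted to log2. The deposited series table holds a score per probe, a signed fold that matched the processed signals of both genes. How that table was made is not given in the sources used.

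Mean signals were corrected with normexp (offset 50) and loess within arrays. Outlier and control spots were left out, and probes had to be well above background on both arrays in 1 group. Of 39429 probes, 26412 were named through a RefSeq accession in GRCm38.p6 and 13017 kept the file's name. Each gene took its brightest probe. Features were tested with lmFit and eBayes in limma 3.58.1 (R 4.3.3), two-sided. The fit has 1 residual degree of freedom, to which eBayes added 10.3. The fit was tested on simulated data; the added degrees of freedom are poorly estimated from so few arrays, so counts of calls are uncertain. The members and lists were chosen with earlier results of these data known; Ckm and Tnnt2 in the smooth muscle list are examples. Named genes were taken by a rule: the members, the Calm2, Calm3, Camk2, Nrgn, Gap43 and Mylk genes, the lowest and highest of each calmodulin list, nearest and neighbouring genes, and up to 3 genes per marker list. The smooth muscle list went past that limit, since each marker at least 1.5-fold lower on both arrays was named. The heart and skeletal muscle list did so as well, to give the range of its genes. A comparison of the members' proteins was planned and is not analysed here. One gene that the rule names is not reported here.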

Additional observations from a re-analysis of the deposited data

How the results depend on the processing

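Pcp4 and Pcp4l1 were lower on both arrays with median centring, without background correction and with processed signals. The series table repeats the processed ratios of both genes. Changes to the filter, the averaging of probes or the eBayes trend could not alter the ratios of genes with 1 probe, so they are no check. The mean log2 ratio of Pcp4 lay between -1.72 and -1.70 under all settings. That of Pcp4l1 was -1.19 with median centring and -1.32 with processed signals or the series table, and the mean difference between them was -0.39 with the latter pair. By mean ratio Pcp4 stood at place 18 and Pcp4l1 at place 39 with processed signals, and at 12 and 31 with the series table. Leaving out an array gave -1.75 to -1.70 for Pcp4 and -1.28 to -1.24 for Pcp4l1, with no test. No setting called a calmodulin list gene, with 2 to 9 of them at an unadjusted p under 0.05 in limma. The features past the test numbered 27 (708 at an unadjusted p under 0.05), but 69 without background correction, 41 with an intensity trend in eBayes, 10 when the probes of a gene were averaged, and 0 with median centring, processed signals, the series table or no filter on dim probes (226, 843, 818 and 979 at an unadjusted p under 0.05). The features at least 1.5-fold changed on both arrays numbered 134, but 288 with processed signals and 260 with the series table. The causes were not tested. The number of arrays limits the precision, and both members were far above background. The ratio within an array already pairs both genotypes, so no other pairing was fitted.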
